A study of Mus musculus with 2 samples.

Results

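Involution, the removal of the milk-secreting epithelium after weaning, is driven by a short signalling chain, and 10 of its genes were followed here through the cell types of the mouse mammary fat pad in full lactation. The genes were chosen by name: Lif, Osmr, Stat3, Socs3, Cebpd, Igfbp5, Ctsb, Ctsl, Ctsd and Bcl2l11, 10 of the 33943 genes in the count table, each with 1 row there. The tissue was the inguinal fat pad of lactating dams, with its lymph nodes removed, frozen on postnatal day 11. Of 8 dams, 4 carried a floxed oxytocin receptor gene (Oxtr) and are called WT after their hashtags, and 4 carried Oxtr deleted in adipocytes per the labels. No source used here names the promoter that drives the Cre. All dams were bred from animals of 8 weeks, and litters were set to 4 to 5 pups on day 1, although the labels list 7 litters of 5 pups and 1 of 3 without tying a litter to a dam. Nuclei of all dams were pooled into 1 droplet library, in which DNA-barcoded hashtags mark the animal, so the values are nuclear RNA and say nothing of protein or of Stat3 phosphorylation.

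In the involuting gland, leukaemia inhibitory factor (Lif) and oncostatin M signal through receptors that share the subunit gp130, and Jak kinases then activate the transcription factor Stat3. Active Stat3 raises Socs3, which feeds back on the receptor, the transcription factor Cebpd and the IGF-binding protein Igfbp5, and it raises lysosomal cathepsins that take part in the death of secretory cells. Bcl2l11 encodes Bim, a pro-apoptotic member of the Bcl2 family that acts in clearing luminal cells. In lactation the secretory epithelium is instead driven by prolactin and Stat5, and it was asked here which cells hold RNA of the involution genes while milk is being made, and whether the labelled deletion changed it.

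The promoter windows of Socs3 and Osmr are shown because Socs3 is the feedback gene through which Stat activity is commonly read, and Osmr had the sharpest cell-type pattern of the members. The windows come from RefSeq on the build GRCm38.p6 and hold 250 bases before and 50 bases after the annotated start. The table had windows for 8 of the 10 members (9 windows, with 2 for Bcl2l11). Each was searched on both strands for TTCNNNGAA, the palindrome that Stat proteins bind, whose 2 strands read alike. Capitals mark the match.
Socs3 (chr11:117969317-117969616, minus strand): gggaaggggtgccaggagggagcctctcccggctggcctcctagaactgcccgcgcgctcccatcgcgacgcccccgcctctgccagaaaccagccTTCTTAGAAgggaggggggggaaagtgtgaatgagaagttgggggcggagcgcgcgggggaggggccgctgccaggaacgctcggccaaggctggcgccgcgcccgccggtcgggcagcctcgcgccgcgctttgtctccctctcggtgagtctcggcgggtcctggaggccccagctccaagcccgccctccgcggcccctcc
Osmr (chr15:6874264-6874563, minus strand): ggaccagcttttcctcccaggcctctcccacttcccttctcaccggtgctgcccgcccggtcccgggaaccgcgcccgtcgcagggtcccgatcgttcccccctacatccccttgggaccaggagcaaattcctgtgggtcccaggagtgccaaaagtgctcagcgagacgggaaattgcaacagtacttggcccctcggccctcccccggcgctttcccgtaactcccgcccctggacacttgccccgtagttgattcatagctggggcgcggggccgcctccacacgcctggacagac
Of the 9 windows only that of Socs3 held a match, TTCTTAGAA at bases 97 to 105, while 8.3% of all 32851 promoter windows held one. The other windows (Lif, Osmr, Stat3, Igfbp5, Ctsl, Ctsd and both of Bcl2l11) held none, which says only that these letters are not in these stretches.

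After filtering, 20854 barcodes were left. Of these, 12998 could be given to 1 of the 8 dams, or 1246 to 2013 nuclei and 5992187 to 11184704 UMIs (unique molecular identifiers, which count RNA molecules) per animal. Levels are given in UMIs per 1000000 UMIs (CPM) of all nuclei of a class in 1 animal, with n = 8 animals, or 4 per genotype. Clusters were made from the same counts as the levels, with all animals together and no member kept out, and were named from markers. Orders between clusters, and the numbers of animals that share them, are therefore a description and not a test. The secretory luminal class (9060 nuclei) was made of a Scd3-led and a Plpp4-led cluster. The Scd3-led share of these nuclei was 42.9, 17.7, 35.4 and 85.2% in WT animals 1 to 4 and 58.4, 53.4, 79.2 and 64.8% in KO animals 1 to 4. By nuclei, all 4 labelled knockouts were thus mostly Scd3-led, and 3 of 4 WT animals were mostly Plpp4-led. By UMIs, which weight the level of the class, the Scd3-led share was 36.5, 13.3, 27.9 and 79.2% in WT animals 1 to 4. In KO animals 1 to 4 it was 49.3, 43.4, 76.8 and 57.1%, so KO animals 1 and 2 were mostly Plpp4-led by UMIs. A cluster led by Top2a carried secretory and cell-cycle markers, and a cluster led by Klra2 carried 7 macrophage markers but none among its leading genes. Both were left unnamed after their genes were seen. The check of the targeted gene went against the labels: Oxtr in adipocyte nuclei was 5.24 ± 0.845 CPM in WT, and the labelled knockouts had 16.6 ± 4.10 CPM (SD, n = 4 each), on 22 UMIs in all. Each WT animal's level there was that of 1 UMI, so the WT SD shows only how UMI totals differed. In myoepithelial nuclei, where contraction is under oxytocin, Oxtr was 226 ± 21.6 and 180 ± 13.3 CPM (SD, n = 4 each). Which exons the counted reads cover was not tested. The groups are therefore called by their labels throughout.

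Milk protein RNA was found in every class. In the 9 classes tested it ran from 7.91% of UMIs in adipocytes to 15.02% in secretory nuclei, and in the Glycam1-led cluster, which was not tested, it was 23.6%. Orders of levels below are over the 9 tested classes unless another is named. For each member a reference level was therefore set beside the measured one: the level a class would hold if its milk protein UMIs brought the member along in the ratio seen in secretory nuclei. A multiple near 1 means that the member was no higher, relative to milk protein RNA, than in secretory nuclei. Whether free RNA made up a given level was not tested.

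**Figure D1:**
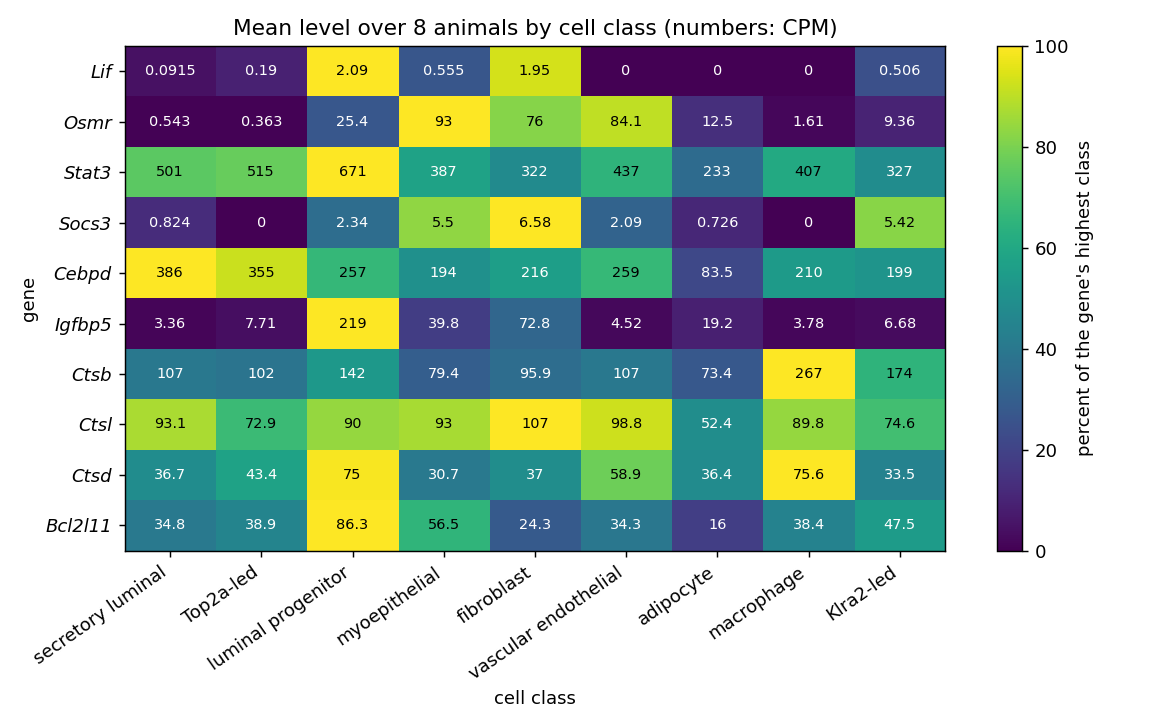
Mean level over 8 animals of each member (rows) in the 9 classes tested (columns). Numbers are CPM, and the colour is the percent of that gene's highest class, so colours compare classes within a row only. Osmr is bright in myoepithelial, endothelial and fibroblast nuclei and near 0 in secretory nuclei (0.543 CPM), whereas Stat3 lies between 233 and 671 CPM in all 9 classes shown.

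The ligand Lif was almost absent. All clustered barcodes together held 23 Lif UMIs in 23 barcodes, of which fibroblasts of the 8 animals held 6, secretory nuclei 4, myoepithelial and luminal progenitor nuclei 2 each. Adipocytes held none, which allows up to 1.58 CPM (3 counts over the class, for counting error only), and endothelial nuclei and macrophages held none, with limits of 2.57 and 3.25 CPM. In secretory nuclei the level was 0.0915 ± 0.107 CPM (SD, n = 8). Pooled over animals, fibroblasts had 1.81 CPM (exact Poisson 95% interval 0.664 to 3.94), luminal progenitors 2.27 (0.275 to 8.20) and secretory nuclei 0.0765 (0.0208 to 0.196). Both intervals lay above that of secretory nuclei on counting error alone, but only 4 of 8 animals had a Lif UMI in fibroblasts and 2 of 8 in progenitors.

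Osmr, the receptor subunit for oncostatin M, was held by stromal and basal cells and hardly at all by the milk-making epithelium. In myoepithelial nuclei, the contractile basal cells, WT animals 1 to 4 had 51.5, 107, 111 and 106 CPM and KO animals 1 to 4 had 61.6, 141, 94.8 and 71.0. In vascular endothelial nuclei the level was 84.1 ± 15.5 CPM and in fibroblasts 76.0 ± 15.8 (SD, n = 8), so these 3 classes differed by less than their spread over animals. Secretory luminal nuclei had 0.543 ± 0.401 CPM (SD, n = 8), on 29 UMIs in 9060 nuclei, and the highest animal had 1.11 CPM. Every animal had more Osmr in each of the 3 high classes than any animal had in secretory nuclei.

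Between these extremes stood luminal progenitors at 25.4 ± 25.2 CPM, where KO animal 3 had 79.4 and KO animal 4 had 46.98, adipocytes at 12.5 ± 7.54 and Klra2-led nuclei at 9.36 ± 13.5 (SD, n = 8), which overlapped one another. Macrophages had 2 Osmr UMIs. Within the fibroblasts the cluster led by Pdgfra had 89.1 ± 18.0 CPM and the cluster led by Pi16, a marker of the adventitial type, 37.0 ± 26.3 (SD, n = 8), and the Pdgfra-led cluster was the higher in 7 of 8 animals. Myoepithelial Osmr was 221 times its reference level and fibroblast Osmr 199 times. Across 11 cell types the genes whose pattern was most like that of Osmr were Zfp521 (r = 0.961), Fam131a (0.916) and Arhgef28 (0.915). This is a description over class means that share the same animals and library. Here and for the members below, such r are the highest among 13973 genes over only 11 points, so high values come with the choice. Some types held few nuclei, such as pericytes with 31 and hormone-sensing luminal with 35.

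Stat3, the transcription factor at the centre of the chain, was in every class. In the 9 tested classes its mean level ran from 671 ± 245 CPM in luminal progenitors through 515 ± 171 in Top2a-led, 501 ± 177 in secretory luminal, 437 ± 141 in endothelial, 407 ± 137 in macrophage, 387 ± 103 in myoepithelial, 327 ± 84.3 in Klra2-led and 322 ± 56.6 in fibroblast nuclei to 233 ± 86.9 in adipocytes (SD, n = 8). Each step between neighbours in that order was smaller than the larger of the 2 SDs, except the last, from fibroblasts to adipocytes, which was slightly larger.

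Animals differed from each other in a similar way in most classes. In secretory nuclei WT animals 1 to 4 had 229, 428, 458 and 575 CPM of Stat3, and KO animals 1 to 4 had 449, 489, 861 and 522. WT animal 1 was the lowest of the 8 in 8 of the 9 classes, and KO animal 3 was the highest in 7 of 9. In fibroblasts, for example, WT animal 1 had 233 CPM and KO animal 3 had 434, against 285 to 339 in the other 6 animals.

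Outside the luminal progenitors, where Stat3 was 1.85 times its reference level, the multiples in the 6 non-secretory classes left ran from 0.845 to 0.995. A further reading came from 240 nuclei with a hashtag of no named sample, in a cluster led by the neuronal gene Nrg3: their milk protein share was 4.17%, and their Stat3 level 70.9 CPM (exact Poisson interval 58.2 to 85.5, counting error only) lay under its reference level of 139 CPM. The genes most like Stat3 across 11 cell types were Clic1 (r = 0.979), Srsf5 (0.979) and Zfp946 (0.976).

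**Figure D2:**
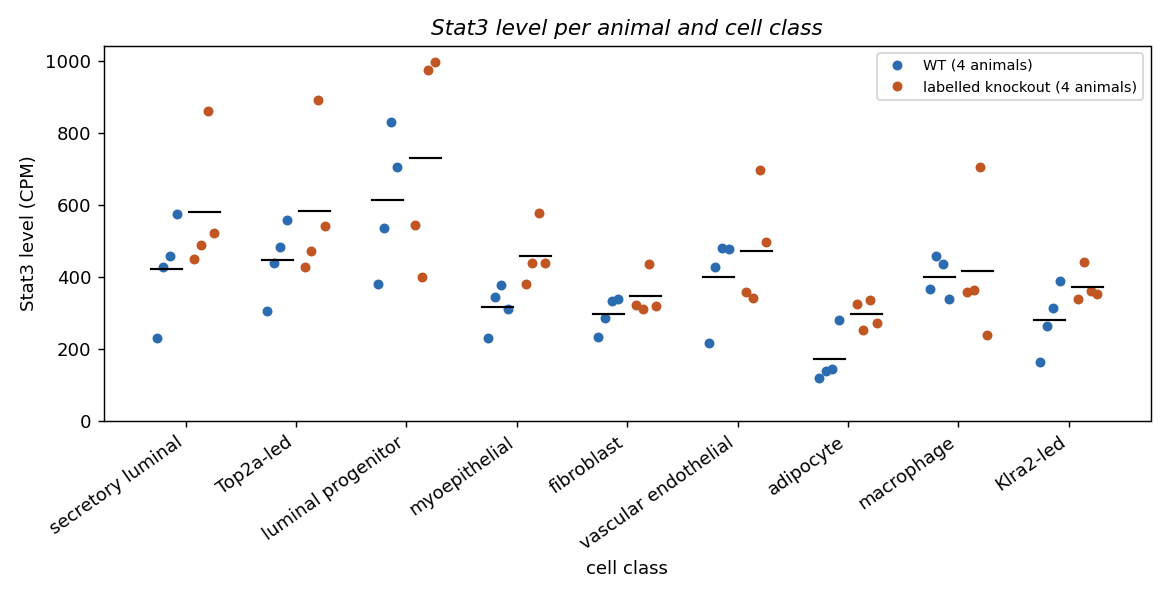
Stat3 level in CPM (vertical axis) per animal in the 9 classes (horizontal axis), WT in blue and labelled knockout in orange, with black bars at the mean of 4 animals. The same animals are low and high in most classes: WT animal 1 is lowest in 8 classes and KO animal 3 highest in 7.

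Socs3, the feedback inhibitor whose promoter carries the Stat palindrome printed above, was scarce, with 173 UMIs in all clustered barcodes. Fibroblasts had 6.58 ± 3.11 CPM, myoepithelial nuclei 5.50 ± 2.31 and Klra2-led nuclei 5.42 ± 5.06 (SD, n = 8), which did not differ beyond their spread. Secretory luminal nuclei had 0.824 ± 0.618 CPM (SD, n = 8) on 39 UMIs, and every animal had more Socs3 in myoepithelial nuclei and in fibroblasts than any animal had in secretory nuclei. Myoepithelial nuclei and fibroblasts held 22 Socs3 UMIs each, and the lowest animal in either class had 1 UMI. The Top2a-led cluster and the macrophages held no Socs3 UMI, with limits of 1.04 and 3.25 CPM.

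Among fibroblasts Socs3 was higher in the Pi16-led cluster, the reverse of Osmr. WT animals 1 to 4 had 19.8, 15.1, 11.8 and 31.2 CPM there and KO animals 1 to 4 had 22.2, 0, 7.68 and 13.1, against 3.92 ± 2.98 (SD, n = 8) in the Pdgfra-led cluster. The Pi16-led cluster was the higher in 7 of 8 animals, on 12 and 10 UMIs. Patterns most like that of Socs3 were those of Gm56768 (r = 0.966), Fam171b (0.932) and Osr1 (0.927). These r rest on few counts. Macrophage, plasma and pericyte nuclei held 0 Socs3 UMIs, and adipocyte, hormone-sensing, endothelial, T or NK and progenitor nuclei held 1 to 3.

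Cebpd, a Stat3 target that encodes a C/EBP transcription factor, had its highest level in the milk-making cells themselves. Secretory nuclei of WT animals 1 to 4 had 378, 333, 388 and 342 CPM, and those of KO animals 1 to 4 had 513, 272, 310 and 552. The Top2a-led cluster followed at 355 ± 107 CPM, and adipocytes were lowest of the classes tested at 83.5 ± 44.3 (SD, n = 8), with every adipocyte value under every secretory value. In the 7 other classes Cebpd was 0.411 to 0.919 times its reference level. Within the secretory class the Scd3-led cluster had 423 ± 108 CPM and the Plpp4-led cluster 363 ± 84.9 (SD, n = 8), a difference of 60.5 ± 39.2 (SD over animals) that had the same sign in 7 of 8 animals. Ammecr1 (r = 0.991), Impa2 (0.983) and Atp2c2 (0.98) had the patterns most like it.

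Igfbp5, which binds IGFs and lowers their survival signal in the involuting gland, was nearly absent from secretory nuclei, where all animals lay between 2.55 and 5.47 CPM. It was held by other epithelial cells and by 1 kind of fibroblast. Luminal progenitors of WT animals 1 to 4 had 363, 129, 175 and 335 CPM, and those of KO animals 1 to 4 had 77.7, 238, 323 and 112. Hormone-sensing luminal nuclei had 309 ± 305 CPM (SD, n = 8), on only 44 UMIs and 35 nuclei, so their place relative to the progenitors could not be set.

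Pi16-led fibroblasts had 265 ± 132 CPM of Igfbp5 and Pdgfra-led fibroblasts 13.3 ± 6.54 (SD, n = 8), a ratio of 19.9 with the Pi16-led cluster higher in 8 of 8 animals. Myoepithelial nuclei had 39.8 ± 12.2 CPM and adipocytes 19.2 ± 16.97 (SD, n = 8). In luminal progenitors Igfbp5 was 90.2 times its reference level. Within the secretory class it was higher in the Scd3-led than in the Plpp4-led cluster in 7 of 8 animals, 4.14 ± 1.01 against 2.51 ± 0.768 CPM (SD, n = 8). Cdc14a (r = 0.915), 5430400D12Rik (0.89) and Utp14b (0.89) were the most like it.

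**Figure D3:**
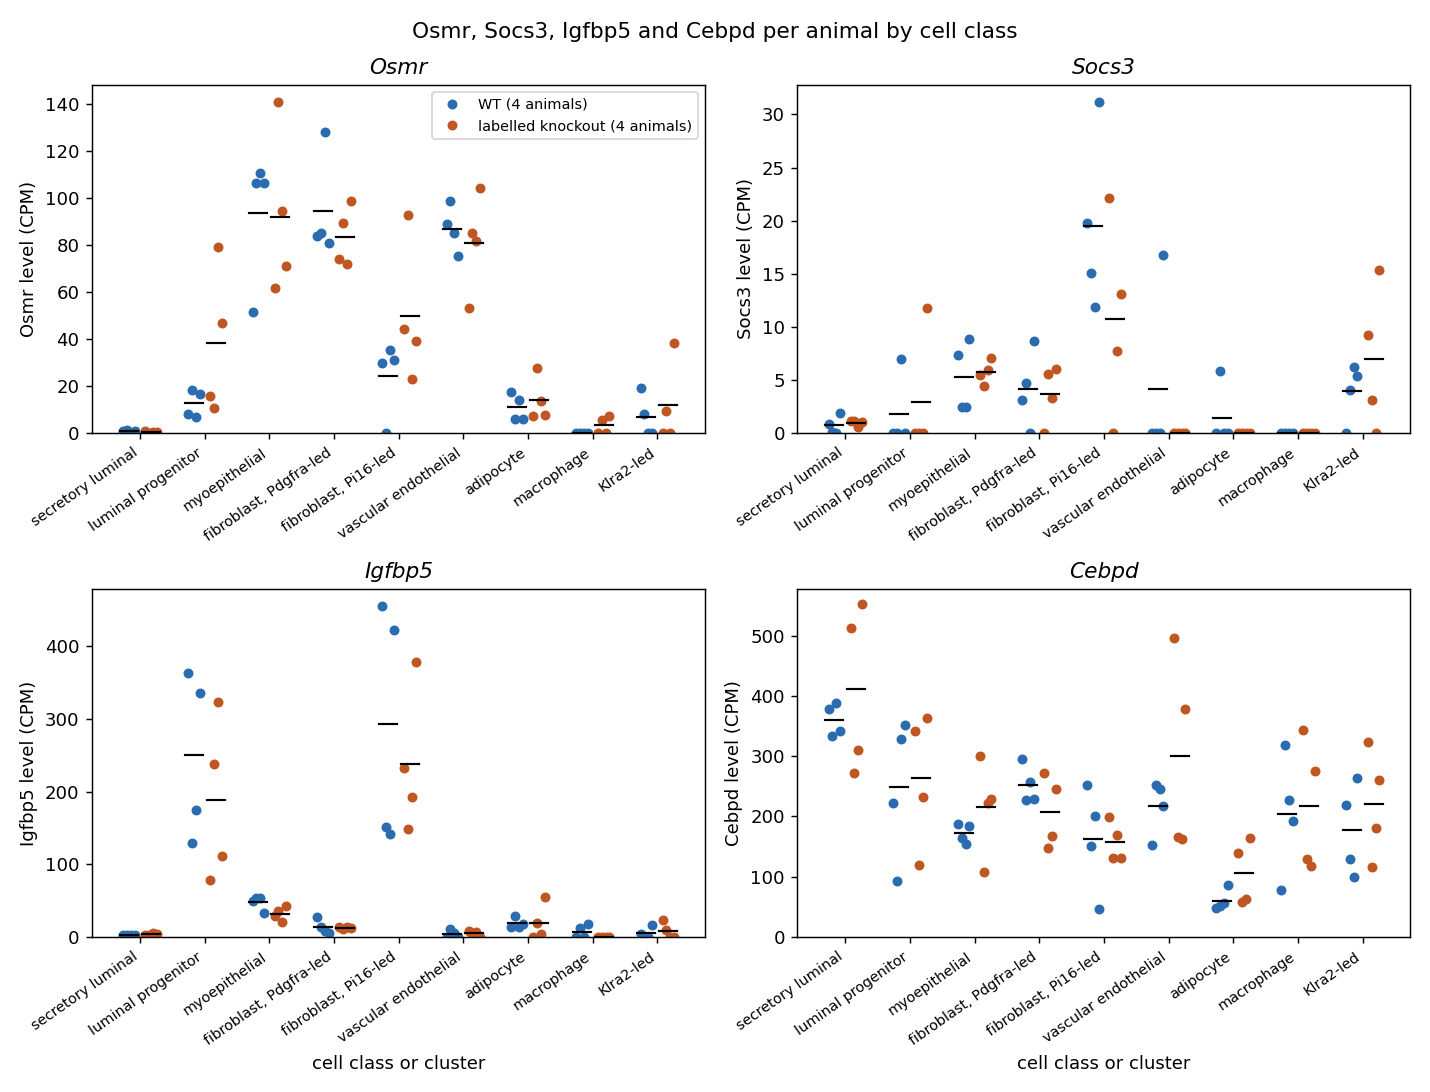
Levels in CPM (vertical axes, from 0, each panel with its own scale) of Osmr, Socs3, Igfbp5 and Cebpd per animal, by class and with the 2 fibroblast clusters apart (horizontal axes). WT is blue, labelled knockout orange, and black bars are means of 4 animals. Osmr is higher in Pdgfra-led and Igfbp5 in Pi16-led fibroblasts (265 against 13.3 CPM), while Cebpd is highest in secretory nuclei.

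The cathepsins, lysosomal proteases, were found in all classes. Ctsb was highest in macrophages, with 267 ± 84.0 CPM, ahead of Klra2-led nuclei at 174 ± 60.3 and secretory nuclei at 107 ± 15.4 (SD, n = 8). Every macrophage value, from 153 to 412 CPM, lay above every secretory value, of which the highest was 133. Ctsd was 75.6 ± 29.6 CPM in macrophages and 75.0 ± 43.9 in luminal progenitors against 36.7 ± 8.22 in secretory nuclei (SD, n = 8), with overlapping animals. Ctsl was the most even, from 52.4 ± 22.7 CPM in adipocytes to 107 ± 29.5 in fibroblasts (SD, n = 8), in the tested classes, and its multiples of the reference level ran from 1.04 to 1.63.

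Within the secretory class all 3 cathepsins were somewhat higher in the Scd3-led cluster. The difference was 8.06 ± 6.83 CPM for Ctsd, 8.61 ± 12.02 for Ctsb and 6.12 ± 8.20 for Ctsl (mean and SD over 8 animals). The Scd3-led cluster was the higher in 7 animals for Ctsd, in 6 for Ctsb and in 7 for Ctsl. Stat3 showed no such order, with 498 ± 184 CPM in the Scd3-led and 497 ± 164 in the Plpp4-led cluster (SD, n = 8) and 4 animals on either side. As multiples of the reference level, Ctsd stayed higher in the Scd3-led cluster (1.05 against 0.95 in the Plpp4-led). Ctsb (0.964 against 1.00) and Ctsl (0.969 against 1.02) were then slightly lower in the Scd3-led cluster.

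Among the tested classes Bcl2l11 was highest in luminal progenitors and in basal cells. Progenitors had 86.3 ± 60.2 CPM, myoepithelial nuclei 56.5 ± 11.0 and secretory nuclei 34.8 ± 8.72 (SD, n = 8), and 1 animal, WT animal 2, had 222 CPM in progenitors. Adipocytes were lowest at 15.98 ± 12.3 CPM (SD, n = 8). Myoepithelial nuclei lay above secretory nuclei of the same animal in 8 of 8 animals. In the Scd3-led and Plpp4-led clusters it was 34.5 ± 9.62 and 34.3 ± 8.18 CPM (SD, n = 8), a difference of 0.205 ± 4.38 (SD over animals). Apobec3 (r = 0.989), Ahr (0.959) and Ap1s3 (0.936) had the most similar patterns.

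Whether Stat3 and the other members moved together was asked across the 8 animals in secretory nuclei, on log2 TMM-scaled CPM. Lif, Osmr and Socs3 were too low there to enter, which left 6 relations. Ctsl had the closest relation to Stat3, with Pearson r = 0.778 (exact permutation p = 0.0119, two-sided, n = 8, adjusted p = 0.0716) and Spearman rho = 0.833 (exact permutation p = 0.0154, adjusted p = 0.0923), and r was 0.805 without WT animal 1 and KO animal 3, the animals farthest from the Stat3 median.

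Ctsd gave r = 0.745 (exact permutation p = 0.0468, adjusted p = 0.138) and rho = 0.5 (exact permutation p = 0.216, adjusted p = 0.432), and Igfbp5 gave r = 0.725 (exact permutation p = 0.0691, adjusted p = 0.138) and rho = 0.5 (exact permutation p = 0.216, adjusted p = 0.432). Both relations rested on the same pair of animals, since r fell to 0.0839 and 0.0888 without them. For Cebpd r was -0.287 (exact permutation p = 0.507, adjusted p = 0.608) and rho -0.405 (exact permutation p = 0.327, adjusted p = 0.49). Ctsb gave r = -0.196 (exact permutation p = 0.629, adjusted p = 0.629) and rho = -0.143 (exact permutation p = 0.752, adjusted p = 0.752), and Bcl2l11 gave r = -0.304 (exact permutation p = 0.425, adjusted p = 0.608) and rho = -0.286 (exact permutation p = 0.501, adjusted p = 0.601). Without WT animal 1 and KO animal 3, r was 0.00674 for Cebpd, 0.443 for Ctsb and 0.3 for Bcl2l11. None of the 6 relations passed the adjusted threshold. Each genotype alone has 4 animals, too few for an r of its own. With each genotype's mean removed, an alternative chosen after seeing the data, r over the 8 animals was 0.74 for Ctsl, 0.694 for Ctsd and 0.604 for Igfbp5 (exact permutation within genotypes, adjusted p = 0.191 for each), -0.411 for Cebpd (exact permutation, adjusted p = 0.383) and -0.276 for Bcl2l11 (0.483). For Ctsb it turned to 0.343 (exact permutation, adjusted p = 0.454). Within an animal all members share its UMI total and its mix of Scd3-led and Plpp4-led nuclei. A relation could also follow these, which was not tested.

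The genotype comparison asked whether the labelled loss of the adipocyte oxytocin receptor changed the involution genes in any class. Of 10 members, 4 to 8 were high enough to be tested in a class, 51 pairs of member and class in all, and none was called in any class (edgeR quasi-likelihood test, Benjamini-Hochberg adjustment over all genes tested in the class, threshold 0.05). DESeq2 called no member either. The share of all tested genes called was 0% in secretory luminal, 0.0152% in myoepithelial, 0% in fibroblast, 0.0437% in endothelial, 0% in Top2a-led, 0.026% in adipocyte, and 0% in macrophage, Klra2-led and luminal progenitor nuclei. A count of 0 members is thus at the background of these comparisons.

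At an unadjusted p under 0.05, 8 of the 51 pairs stood out: 2 of 7 members tested in secretory luminal nuclei (8.41% of all genes there), 2 of 8 in myoepithelial (7.62%), 2 of 8 in fibroblast (5.59%) and 2 of 4 in adipocyte nuclei (8.23%), and none in endothelial (4.02%), Top2a-led (5.86%), macrophage (2.9%), Klra2-led (7.33%) or luminal progenitor nuclei (5.74%). A few members a class are too few to be read against these shares. All animals were in 1 library, so p-values measure the spread between animals, with hashtag errors included.

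In secretory nuclei Ctsd had 27.9, 32.2, 29.4 and 34.3 CPM in WT animals 1 to 4 and 39.3, 38.5, 54.2 and 37.4 in KO animals 1 to 4. All 4 labelled knockouts lay above all 4 WT animals. How many of all genes part the groups in this way was not counted, here or for Ctsb and Stat3 below. The log2 fold change of Ctsd, as labelled KO minus WT, was 0.41 (SE 0.12, edgeR adjusted p = 0.572). The mean was higher in the labelled knockouts in each cluster, 46.1 ± 9.20 against 36.1 ± 4.25 CPM in Scd3-led and 36.8 ± 3.62 against 29.2 ± 3.87 in Plpp4-led nuclei (SD, n = 4 each), but the animals overlapped within each cluster. The part of the cluster mix, which differed between animals as given above, was not tested for this or the other secretory comparisons.

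Ctsb went the other way. WT animals 1 to 4 had 112, 111, 111 and 133 CPM and KO animals 1 to 4 had 80.1, 92.6, 110 and 108, so that all labelled knockouts lay below all WT animals, although the nearest animals were at 111 and 110. The log2 fold change was -0.29 (SE 0.11, edgeR adjusted p = 0.575). The milk protein share of secretory nuclei was 15.02 ± 0.857% in WT and 15.01 ± 2.46% in the labelled knockouts (SD, n = 4 each).

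**Figure D4:**
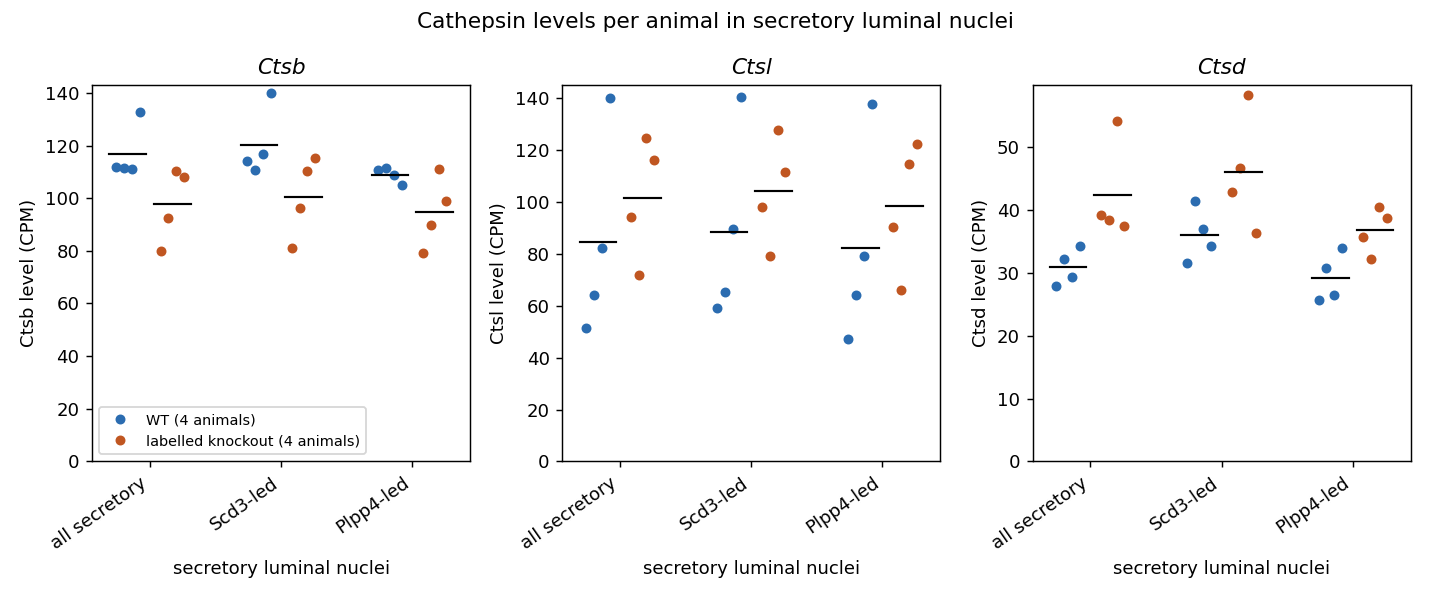
Ctsb, Ctsl and Ctsd levels in CPM (vertical axes, from 0) per animal in all secretory luminal nuclei and in its Scd3-led and Plpp4-led clusters, WT in blue and labelled knockout in orange, with black bars at the mean of 4 animals. Over all secretory nuclei Ctsd is higher in all 4 labelled knockouts (37.4 to 54.2 CPM) than in WT (27.9 to 34.3), and Ctsb is lower in all 4. How many of all genes part the groups in this way was not counted.

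Stat3 had a log2 fold change above 0 in 8 of the 9 classes, macrophages being the exception (-0.04). The classes come from the same 8 animals, which were low or high together, so these are not 8 separate results. In myoepithelial nuclei Stat3 was 229, 344, 378 and 311 CPM in WT animals 1 to 4 and 381, 437, 577 and 438 in KO animals 1 to 4, with no overlap and a log2 fold change of 0.53 (SE 0.16, edgeR adjusted p = 0.359). With the replicate number as a block the adjusted p was 0.0899 (range over the alternatives 0.0899 to 0.999).

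In adipocytes, the cells in which Oxtr was to be deleted, Stat3 was 119, 139, 144 and 281 CPM in WT animals 1 to 4 and 325, 253, 336 and 270 in KO animals 1 to 4. WT animal 4 lay within the range of the labelled knockouts, the other WT animals below it. The log2 fold change was 0.80 (SE 0.25, edgeR adjusted p = 0.367). Without WT animal 4 it was 1.13 with an adjusted p of 0.0245, and over all alternatives the adjusted p ran from 0.0245 to 0.999, so the call depended on that animal. The fit without that animal called 43 genes in all, against 1 in the main fit, so calls rose in general there.

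Cebpd in adipocytes was 48.4, 52.3, 55.8 and 85.6 CPM in WT animals 1 to 4 and 139, 58.3, 63.5 and 165 in KO animals 1 to 4, overlapping, with a log2 fold change of 0.81 (SE 0.37, edgeR adjusted p = 0.599). Both members stood below their reference level in adipocytes (0.884 and 0.411 times). All 14 secretory markers were detected in adipocyte nuclei, with a summed share of 6.69 to 7.69% of UMIs in WT and 6.92 to 8.26% in the labelled knockouts. The 13 adipocyte markers summed to 3.03 to 3.59% in WT and 2.54 to 2.77% in the labelled knockouts, without overlap. Every marker list was compared in this way in every tested class, and nearly all overlapped. The part of either list in the Stat3 and Cebpd values was not tested.

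In fibroblasts Bcl2l11 was 9.55, 32.4, 12.9 and 12.2 CPM in WT animals 1 to 4 and 14.9, 26.8, 32.2 and 53.6 in KO animals 1 to 4, overlapping, with a log2 fold change of 0.97 (SE 0.44, edgeR adjusted p = 0.859). Igfbp5 there was 193, 46.8, 45.1 and 70.7 CPM in WT and 50.4, 29.2, 66.7 and 80.3 in the labelled knockouts, with a log2 fold change of -0.80 (SE 0.38, edgeR adjusted p = 0.885) that was -0.00 without WT animal 1, the animal with 193 CPM. The Pi16-led cluster, which holds most of this RNA, gave 38.6% of fibroblast UMIs in that animal and 13.1 to 29.9% in the others. Within it Igfbp5 was 292 ± 169 CPM in WT and 238 ± 99.7 in the labelled knockouts (SD, n = 4 each), with overlap. All 10 macrophage markers were detected in fibroblast nuclei, at 0.0231 to 0.0293% of UMIs in WT and 0.0306 to 0.046% in the labelled knockouts, without overlap, and their part in these values was not tested. Of all marker lists in all tested classes, few had no overlap. Besides this list and the adipocyte list above, they were the fibroblast and dendritic lists in endothelial nuclei.

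In myoepithelial nuclei Igfbp5 was 50.0, 53.3, 54.1 and 33.3 CPM in WT and 29.0, 35.7, 20.7 and 42.6 in the labelled knockouts, overlapping, with a log2 fold change of -0.55 (SE 0.26, edgeR adjusted p = 0.645). It turned to 0.20 when hashtags were called from centred log ratios within barcodes. The other 43 pairs ran from -0.37 to 0.49 on the log2 scale.

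**Figure D5:**
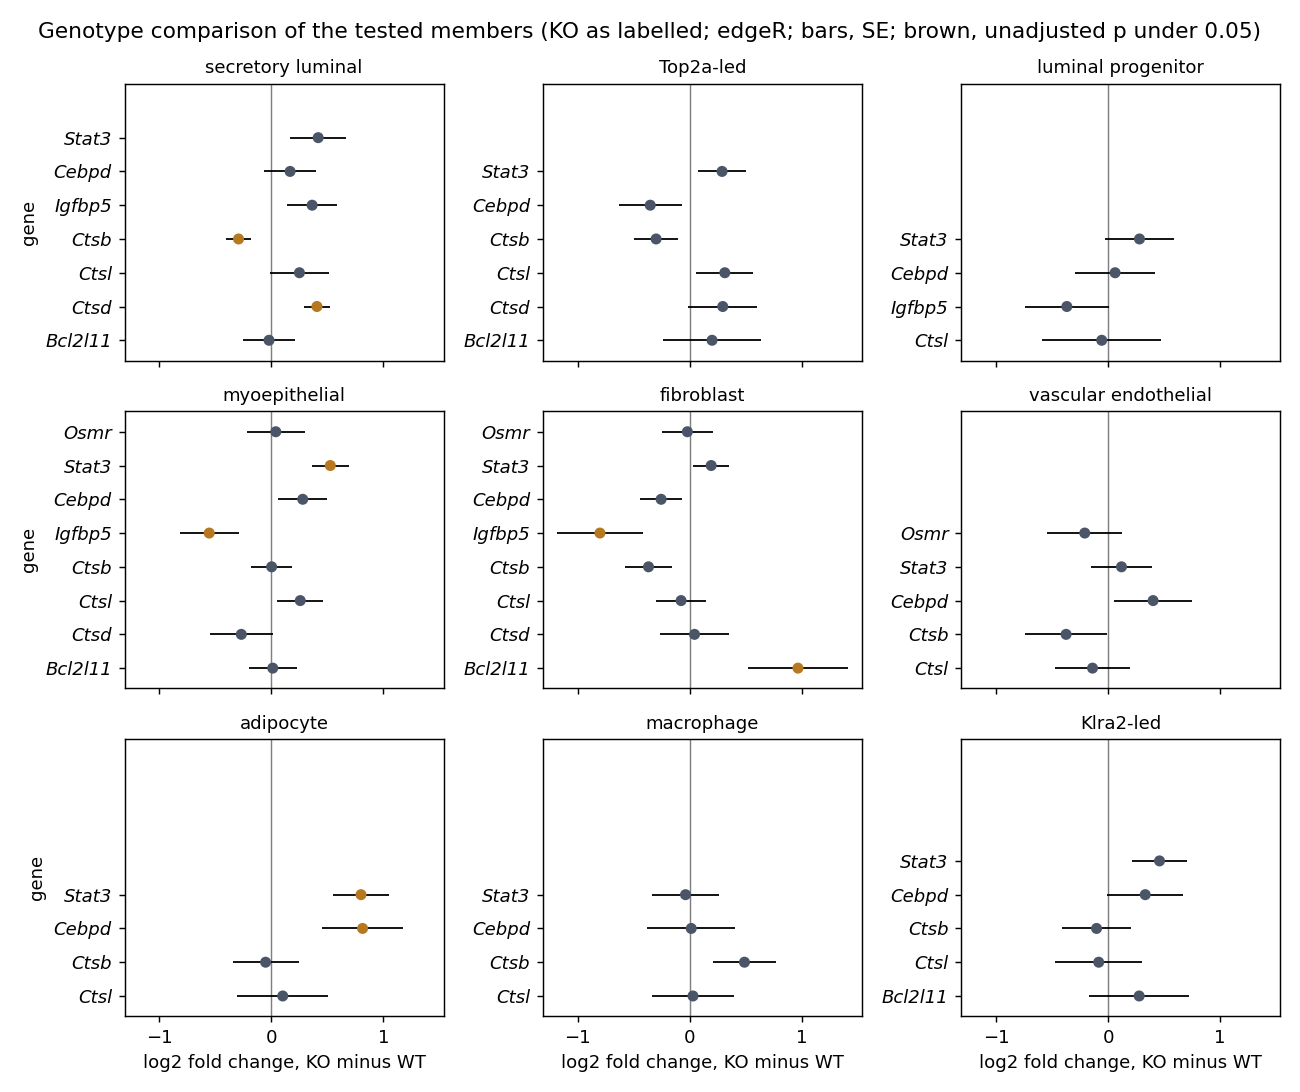
Log2 fold change (horizontal axis, labelled KO minus WT) with its SE for each member tested (vertical axis) in the 9 classes. Brown points have an unadjusted p under 0.05 and grey points do not. No point passed the adjusted threshold. Stat3 lies above 0 in every panel but that of the macrophages.

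The wider pathway was read from 6 lists of other genes, and no gene of any list was called in any class. Of 16 genes of gp130 cytokines, receptors and Jak kinases, 10 were tested in secretory nuclei, 6 higher and 4 lower in the labelled knockouts (median log2 0.04 against -0.01 for all genes), led by the Lif receptor Lifr (log2 0.43, SE 0.18, edgeR adjusted p = 0.575) and the kinase Jak1 (0.78, SE 0.34, 0.592). In adipocytes 5 were tested, 3 higher and 2 lower, and Jak1 (log2 0.34, SE 0.20, edgeR adjusted p = 0.705) and Il6ra (0.40, SE 0.25, 0.726) had the smallest p.

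Of 29 other Stat3 targets and feedback genes, 26 were tested in secretory nuclei, 11 higher and 15 lower, with Irf1 (log2 -0.67, SE 0.26, edgeR adjusted p = 0.575) and Cebpb (0.32, SE 0.13, 0.575) first by p. In adipocytes 8 of 14 were higher, with Lbp (log2 0.93, SE 0.40, edgeR adjusted p = 0.584) and Vmp1 (-0.52, SE 0.22, 0.585) first.

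The list of 28 lysosomal genes had 25 tested in secretory nuclei, of which 19 were higher and 6 lower in the labelled knockouts, with a median log2 of 0.20 against -0.01 over all 12729 genes and 9 at an unadjusted p under 0.05, where 8.41% of all genes were. In the other 5 lists that count was 2 of 10 gp130, 2 of 26 Stat3 target, 1 of 19 apoptosis, 1 of 7 IGF and 1 of 9 matrix genes. The lysosomal channel Mcoln1 (log2 0.44, SE 0.13, edgeR adjusted p = 0.572) and the protease Ctsh (0.46, SE 0.14, 0.575) led it. In adipocytes 4 of 7 were higher and 2 had an unadjusted p under 0.05, as had 0 of 5 gp130, 2 of 14 Stat3 target, 1 of 4 apoptosis, 2 of 6 IGF and 0 of 1 matrix genes, against 8.23% of all genes. The list was led there by the acid lipase Lipa (log2 0.73, SE 0.25, edgeR adjusted p = 0.419) and Psap (0.66, SE 0.25, 0.501). The lists were chosen with earlier results of these data known, and their genes were read in the same 8 animals. These counts are therefore a description and not a test of any list.

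Of 24 Bcl2 family and apoptosis genes, 7 of 19 tested were higher in secretory nuclei, among them the transcription factor Foxo3 (log2 0.47, SE 0.24, edgeR adjusted p = 0.612). In adipocytes 2 of 4 were higher, and Bcl2 (log2 -0.72, SE 0.31, edgeR adjusted p = 0.593) and Fas (-0.69, SE 0.34, 0.637) came first.

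Of 13 genes of the IGF axis, 7 were tested in secretory nuclei, 3 higher and 4 lower, with Stc2 (log2 -0.43, SE 0.19, edgeR adjusted p = 0.587) and Igfbp6 (-0.50, SE 0.21, 0.61) first. In adipocytes 2 of 6 were higher, and the growth factor Igf1 had the lowest fold change at log2 -1.69 (SE 0.50, edgeR adjusted p = 0.303), followed by Igfbp7 (-1.11, SE 0.41, 0.485). Of 21 matrix proteases and inhibitors, 9 were tested in secretory nuclei, 4 higher and 5 lower, with Mmp19 (log2 0.65, SE 0.28, edgeR adjusted p = 0.587) and Timp1 (-0.33, SE 0.44, 0.853) first, and only Adamts5 was tested in adipocytes (0.41, SE 0.32, 0.787).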

How the data were processed

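The authors deposited raw UMI counts per gene and nucleus, whole numbers with no normalization, and read counts per hashtag UMI. The submitters' processing notes name fastp, Cell Ranger 7.2.0 and the build GRCm39, without settings. For the annotation release: not given in the sources used here. Barcodes with at least 500 UMIs, 300 genes and under 5% mitochondrial UMIs were kept. Animals were called with HTODemux (Seurat 5.3.0, quantile 0.99, 9 of 10 hashtags). Of kept barcodes, 12998 had 1 named animal, 1944 were removed as hashtag doublets, 5647 had no hashtag and 265 that of Unknown_sample2. Scrublet's own threshold marked 1 barcode and did not work. Hashtags named WT were taken as the floxed group, the only other genotype the labels give. Some nuclei were washed to lower free RNA, per the labels' protocols, without saying which.

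The 18910 barcodes left were clustered with scanpy 1.11.5 (Python 3.11.15; 2000 variable genes, 30 components, 15 neighbours, resolution 0.5) and named by hand from the marker list with the most raised genes (at least 3). Clusters led by Top2a, Klra2 and Glycam1 also had 3 or more such markers and were left unnamed after their leading genes or depth were seen. The Glycam1-led cluster (14 secretory markers, 1775 UMIs at the median) was not tested. Counts summed per animal were tested in classes with at least 10 nuclei in 3 animals of each genotype (edgeR 4.0.16, R 4.3.3, TMM, filterByExpr, each class alone, both genotypes). DESeq2 1.42.0, other scalings and hashtag rules, and leaving out each animal were alternatives. On simulated data the test was checked with known changes. Printed levels are plain CPM, while the test scales by TMM. The 3 members too low in secretory nuclei left 6 relations of the 9 planned. Members and lists were chosen with earlier results of these data known. Fold changes with SE are given for members with an unadjusted p under 0.05, for the 2 list genes of smallest p in secretory and adipocyte nuclei (1 of them is not reported here), and likeness is Pearson r of log2(CPM + 1) over 11 cell types among 13973 genes, the 3 highest named.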

Additional observations from a re-analysis of the deposited data

Results flagged for a closer look

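Of 102 groups of 4 animals of 1 genotype, 1 member and 1 class, 8 held an animal whose gap to the next, as a share of the group's range, was above the 95% critical value of Dixon's test. Chance gives about 1 in 20. In WT animals the animal apart was animal 4 in 4 groups: Stat3 in adipocytes (281 CPM against 119 to 144), Ctsb in secretory nuclei (133 against 111 to 112), Ctsl in fibroblasts (171 against 82.9 to 89.8) and Ctsd in myoepithelial nuclei (46.6 against 26.6 to 29.5). WT animal 1 was low for Osmr in myoepithelial nuclei (51.5 against 106 to 111), and WT animal 2 was high for Bcl2l11 in fibroblasts (32.4 against 9.55 to 12.9). Among the labelled knockouts, animal 3 was high for Stat3 in fibroblasts (434 against 311 to 323) and for Ctsd in secretory nuclei (54.2 against 37.4 to 39.3).

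The 240 nuclei of Unknown_sample2 in the Nrg3-led cluster, which entered no comparison, held members above the 3 counts that a 0 allows. Their levels, in 1 sample without replicates, were 94.97 CPM for Ctsb, 76.1 for Ctsl, 70.9 for Stat3, 53.3 for Ctsd, 28.6 for Cebpd, 9.11 for Igfbp5, 4.55 for Bcl2l11 and 2.60 for Socs3. Against the reference levels set by the milk protein share, 5 were above (Ctsb 29.8, Ctsl 25.8, Ctsd 10.2, Igfbp5 0.932 and Socs3 0.229 CPM) and 3 below (Stat3 139, Cebpd 107 and Bcl2l11 9.66 CPM). Socs3 rests on 4 UMIs.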

How the results depend on the processing

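No member was called in 142 of the 143 alternative fits of the 9 classes. The exception was 1 member, Stat3 in adipocytes without WT animal 4 (log2 1.13, adjusted p = 0.0245), so leaving out 1 animal gave 0 to 1 members called in adipocytes. That fit called 43 genes in all, against 1 in the main fit. The numbers of all genes called moved more, up to 78 in adipocytes and 62 in myoepithelial nuclei, and DESeq2 called 22 genes in secretory, 14 in myoepithelial and 2 in adipocyte nuclei where edgeR called 0, 1 and 1. With the replicate number as a block no member was called (Stat3 in adipocytes log2 0.84, adjusted p = 0.148). The numbers pair nothing in the labels, and the correlations of same-numbered animals' deviations were 0.396, -0.0342, 0.331 and 0.194. Igfbp5 in myoepithelial nuclei turned to a log2 of 0.20 with centred log ratios within barcodes. Socs3 in fibroblasts was 9.77 CPM without the highest 5% of Scrublet scores, against 6.58, while the other 107 values of the members' highest levels moved by less than 1 SD. With centred log ratios within barcodes, r of Stat3 was 0.783 with Ctsl and 0.784 with Ctsd (adjusted p = 0.0463 for both). Leaving out each animal in turn gave r from 0.588 to 0.82 for Ctsl, 0.472 to 0.883 for Igfbp5, 0.536 to 0.818 for Ctsd, -0.491 to -0.0242 for Cebpd, -0.355 to 0.0786 for Ctsb and -0.663 to 0.179 for Bcl2l11. The sign turned for Ctsb without WT animal 1 (0.0786) or with each genotype's mean removed (0.343) and for Bcl2l11 without KO animal 3 (0.179), and the relation with Ctsl passed the threshold without WT animal 4 (0.82) or KO animal 3 (0.775), that with Igfbp5 without WT animal 4 (0.883). The causes were not tested. Macrophages could not be fitted with hashtags called from centred log ratios within barcodes. Lif, Osmr and Socs3 were too low for the filter in secretory nuclei, the class with the most UMIs. In adipocytes, progenitors and macrophages 4 of 10 members were tested.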
